A study of Mus musculus with 56 samples.

Results

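Dbp, Tef, Hlf and Nfil3 were followed in the mouse heart around the clock under opposite feeding schedules. These 4 genes were chosen by name, as the PAR bZIP transcription factors and the repressor that shares their binding site, out of 22864 genes listed for the series, and all 4 passed the filter of a mean of at least 1 TPM (a length-corrected share of a library's transcripts) that left 13893 genes to test. Hearts came from adult female C57BL/6J mice of 9 weeks, an inbred laboratory strain, kept in cycles of 12 h light and 12 h dark. Mice were fed freely for 7 days and then, for a further 7 days, were given food either in the day only (daytime-restricted feeding, DRF) or in the night only (nighttime-restricted feeding, NRF, the reference). Zeitgeber time (ZT) counts hours from lights on, and hearts were collected at ZT0, ZT4, ZT8, ZT12, ZT16, ZT20 and ZT24, with 4 libraries in each of the 14 combinations and 56 in all. The labels name no allele or drug in either group. The labels number the replicates without saying whether each is a separate animal, so the p-values measure the spread between these libraries.

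PAR bZIP factors carry a basic leucine zipper preceded by a domain rich in proline and acidic residues. They bind DNA as dimers at D-box elements and activate transcription, and Nfil3 (E4bp4), a leucine zipper protein without that domain, binds the same elements as a repressor. The circadian clock drives Dbp through E-boxes bound by CLOCK and BMAL1, and drives Nfil3 through elements bound by the ROR and REV-ERB nuclear receptors, so that activators and repressor are high at opposite times of day. Downstream genes include those of detoxification and lipid metabolism and the Per genes of the clock itself. In the heart, as in liver, the PAR bZIP transcripts are among the most strongly cycling clock outputs.

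In the build GRCm38, Dbp (ENSMUSG00000059824) lies at chr7:45705088-45710203 on the plus strand, Tef (ENSMUSG00000022389) at chr15:81802421-81826863 on the plus strand, Hlf (ENSMUSG00000003949) at chr11:90336536-90390895 on the minus strand and Nfil3 (ENSMUSG00000056749) at chr13:52967209-52981073 on the minus strand, and all 4 are protein coding. The 250 bases before each RefSeq start site were searched on both strands for the E-box CACGTG, the ROR/REV-ERB element TAGGTCA, the cAMP response element TGACGTCA and the D-box TTANGTAA. RefSeq promoters of GRCm38.p6 matched all 4 members, with 2 start sites for Tef. The windows that held such letters are printed below, 60 bases each, 5′ to 3′ on the strand of the gene, because clock and signalling factors act through such elements; capitals mark the motif.
Tef promoter 1 (chr15:81802519-81802578, plus strand): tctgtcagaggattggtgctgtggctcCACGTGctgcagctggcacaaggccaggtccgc
Tef promoter 2 (chr15:81811249-81811308, plus strand): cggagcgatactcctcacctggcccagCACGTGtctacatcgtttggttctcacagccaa
Hlf (chr11:90390918-90390977, minus strand): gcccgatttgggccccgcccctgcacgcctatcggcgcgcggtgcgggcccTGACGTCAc
Nfil3 (chr13:52981040-52981099, minus strand): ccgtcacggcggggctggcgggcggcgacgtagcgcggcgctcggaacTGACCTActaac
Both Tef windows hold the E-box, which reads the same on either strand and starts 127 and 138 bases before the start site. The E-box stands in 6.02% of the 32851 promoters searched. The Hlf window holds a cAMP response element, also the same on either strand, that starts 9 bases before the start site, and 1.55% of promoters hold these letters. The Nfil3 window holds the ROR/REV-ERB element on the opposite strand of the gene, from 12 bases before the start site, against 2.23% of promoters. None of the 4 motifs stands in the 250 bases before the Dbp start site, and the D-box, present in 2.06% of promoters, stands in none of the members' windows. A match of letters is a description and not a measurement of binding.

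Libraries held 29.3 to 53.0 M recovered reads (median 37.4 M), and the members had between 148 (Dbp) and 16382 (Tef) reads in a library. Marker lists were summed in every library, with all genes of each list listed. The 6 cardiomyocyte markers summed to 27124 to 36908 TPM under NRF (median 29848) and 23068 to 31446 TPM under DRF (median 28679). The 4 atrial markers summed to 129 to 4307 TPM under NRF (median 609) and 95.0 to 5481 TPM under DRF (median 1802), and the 3 blood markers to 1013 to 27367 TPM under NRF (median 4618) and 1201 to 46828 TPM under DRF (median 4723). Under NRF and DRF in turn, sums ran from 416 to 719 and from 351 to 611 TPM for 4 endothelial markers, from 465 to 749 and from 432 to 723 TPM for 4 fibroblast markers and from 205 to 469 and from 168 to 338 TPM for 3 smooth muscle markers. They ran from 370.0 to 923 and from 466 to 829.02 TPM for 5 immune markers, from 2.96 to 55.4 and from 1.702 to 143 TPM for 4 adipose markers, and from 0.0421 to 12.6 and from 0.0295 to 59.7 TPM for 2 liver markers. In mean level over the day, all 4 endothelial markers (Pecam1, Cdh5, Kdr and Tie1) passed as lower under DRF, by log2 differences of -0.24 to -0.13 (limma adjusted p under 0.05), as did 2 of 4 fibroblast, 1 of 3 smooth muscle and 2 of 4 immune markers tested, where 26.0% of all genes passed in either direction, so that 1 of 3 is close to the background. The 1 liver marker tested, Alb, passed as higher (0.99), 1 cardiomyocyte marker passed in each direction, and no atrial, blood or adipose marker passed. With median-of-ratios scaling 2 endothelial, 1 fibroblast, 0 smooth muscle and 1 immune marker passed as lower, and Alb did not pass without mitochondrial genes in the scaling. Their part in the results below was not tested. In bulk tissue, fewer cells of a type and less RNA per cell cannot be told apart.

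The labels were checked against the profiles of the libraries. Over the 1000 genes that differed most between groups, with the members and 15 clock genes left out, 4 of 56 libraries were nearer to the mean of another group than to their own, 2 of them by a wide margin. The library labelled DRF ZT4 replicate 1 had a root-mean-square distance of 0.393 on the log2 scale to its own group and of 0.189 to NRF ZT8, and the library labelled NRF ZT8 replicate 1 had 0.378 to its own group and 0.198 to DRF ZT4. In the other cases, NRF ZT0 replicate 1 and NRF ZT4 replicate 1, the distances were nearly equal. The members behaved the same way. In the library labelled DRF ZT4 replicate 1, Dbp was 119 TPM, against 17.7 to 37.7 TPM in the other DRF ZT4 libraries and 117 to 158 TPM in NRF ZT8 replicates 2 to 4. In the library labelled NRF ZT8 replicate 1, Nfil3 was 22.4 TPM, against 4.98 to 6.74 TPM in the other NRF ZT8 libraries and 15.2 to 22.5 TPM in DRF ZT4 replicates 2 to 4. Of the 8 member values in both libraries, 7 fell within the range of the other group and 0 within that of their own. No label was changed. Values are with all 56 libraries unless stated, and the main results are also given without these 2, a removal added after seeing the data.

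All 4 members cycled under both regimens, and the cycle differed between regimens for each of them. Under NRF the 24-h rhythm had adjusted p-values of 2.89e-13 for Dbp, 1.32e-13 for Tef, 1.85e-10 for Hlf and 2.63e-09 for Nfil3 (an F test in limma of the cosine and sine coefficients, Benjamini-Hochberg adjusted over all genes tested), where 37.2% of genes passed. Under DRF the values were 7.16e-08, 2.51e-08, 5.72e-10 and 0.00489 in the same order, where 32.2% of genes passed. The difference in rhythm between regimens had adjusted p-values of 2.11e-05, 2.94e-07, 1.83e-05 and 1.17e-06 (limma interaction F test), and 27.5% of genes passed. All of these calls held without the 2 libraries, when 42.8% of genes were rhythmic under NRF, 30.0% were under DRF and 30.5% differed in rhythm. The DRF rhythm of Nfil3 was the weakest of the 8, and its adjusted p rose to 0.0969 without ZT8 and to 0.0513 without ZT16, and to 0.0528 and 0.0585 without replicates 1 and 2 of every group (limma).

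**Figure D1:**
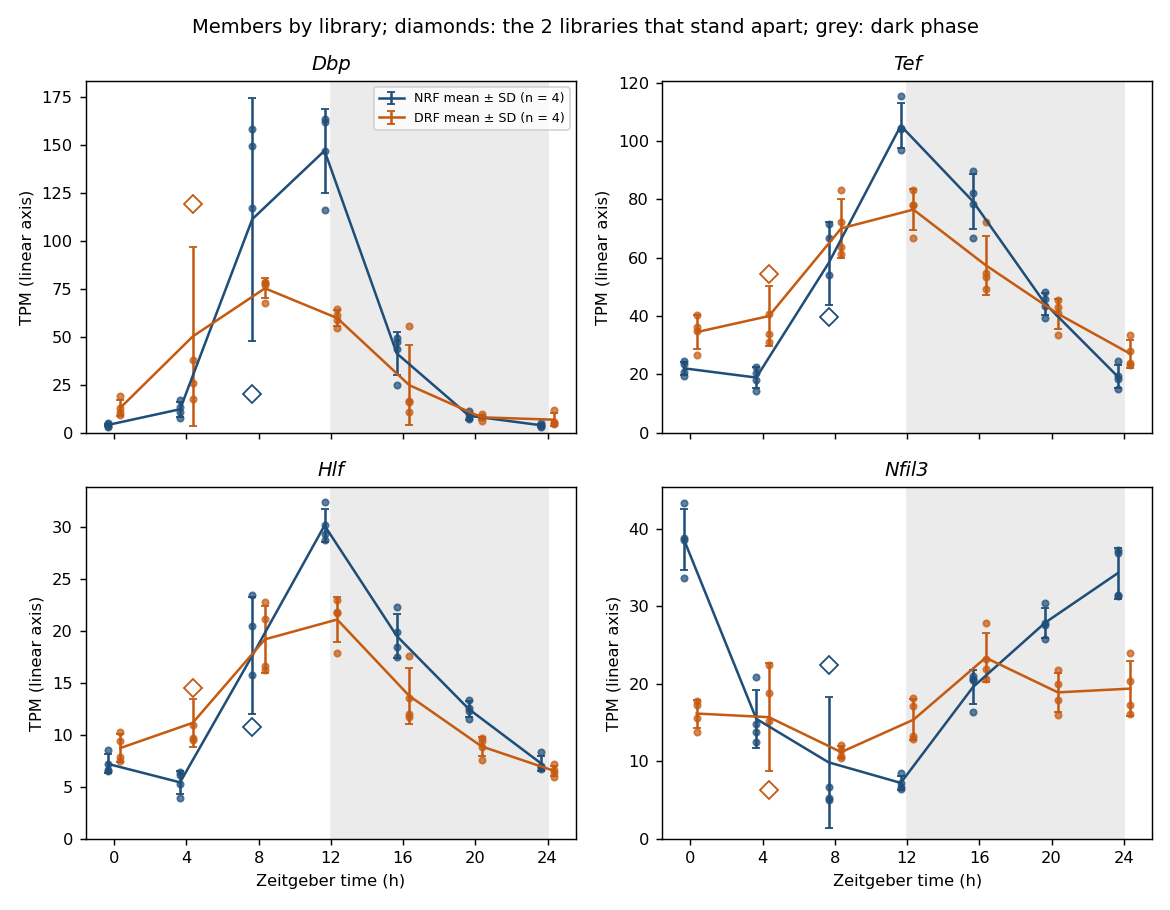
TPM of each member (linear axes) against zeitgeber time for NRF (blue) and DRF (orange), with points for libraries, lines for group means and bars for SD (n = 4). Diamonds mark the libraries labelled DRF ZT4 replicate 1 and NRF ZT8 replicate 1, and under DRF the curves are flatter than under NRF.

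Dbp, the member that swings most widely, was low at dawn and high around dusk under NRF, and under DRF its peak was lower and earlier. At ZT0, Dbp measured 3.75, 3.16, 4.94 and 4.33 TPM under NRF and 9.32, 18.9, 10.8 and 13.1 TPM under DRF. Every DRF library was above every NRF library there, by 3.23-fold in the means, and the log2 difference was 1.44 (SE 0.42, adjusted p = 0.0194). That call was lost without DRF ZT0 replicate 2 (adjusted p = 0.0730) or NRF ZT0 replicate 1 (0.0527) and with voom on the recovered reads (0.0762). At ZT4, Dbp measured 7.86, 16.9, 10.6 and 13.6 TPM under NRF and 119, 37.7, 26.2 and 17.7 TPM under DRF. DRF was again above NRF in every library, with a log2 difference of 1.61 (SE 0.42, adjusted p = 0.0629) that became 1.08 (SE 0.31, adjusted p = 0.0394) without the 2 libraries. At ZT8, Dbp measured 20.1, 117, 149.7 and 158 TPM under NRF and 76.9, 67.5, 78.3 and 78.5 TPM under DRF. The groups overlapped only through the library labelled NRF ZT8 replicate 1, and without the 2 libraries DRF lay below NRF, 75.3 ± 5.26 TPM (SD, n = 4) against 142 ± 21.7 TPM (SD, n = 3), with a log2 difference of -0.90 (SE 0.31, adjusted p = 0.0863).

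At ZT12, Dbp measured 162, 164, 147 and 116 TPM under NRF and 58.8, 61.2, 54.7 and 64.3 TPM under DRF. All DRF libraries were below all NRF libraries at this time, 2.46-fold in the means, with a log2 difference of -1.27 (SE 0.42, adjusted p = 0.0532). Without the 2 libraries, neither of them at ZT12, the difference was the same and passed with a smaller SE of 0.29 (adjusted p = 0.00318). At ZT16, Dbp measured 43.8, 47.4, 49.3 and 24.9 TPM under NRF and 55.8, 10.6, 16.1 and 16.4 TPM under DRF. DRF ZT16 replicate 1 was far above the other DRF libraries, and the log2 difference of -0.96 (SE 0.42, adjusted p = 0.151) became -1.44 (adjusted p = 0.0258) without it. At ZT20, Dbp measured 9.53, 7.43, 11.3 and 7.04 TPM under NRF and 9.69, 6.21, 8.04 and 8.08 TPM under DRF. At ZT24, Dbp measured 4.26, 4.87, 3.04 and 3.36 TPM under NRF and 5.48, 5.03, 12.0 and 4.67 TPM under DRF. The regimens overlapped at both of these late times, when Dbp was near its floor.

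Over the day the group means of Dbp spanned 37.9-fold under NRF, with 3.88 ± 0.838 TPM as the lowest mean (ZT24) and 147 ± 21.9 TPM as the highest (ZT12), and 11.1-fold under DRF, with 6.80 ± 3.49 TPM (ZT24) and 75.3 ± 5.26 TPM (ZT8; SD, n = 4). The fitted peak of Dbp lay at ZT 11.3 (SE 0.254 h) under NRF and at ZT 9.19 (SE 0.398 h) under DRF, a shift of -2.14 h (95% interval -3.06 to -1.21 h; n = 28 libraries per regimen; permutation test within ZT, two-sided, unadjusted p = 3.80e-04). Without the 2 libraries that stand apart the shift was -1.60 h (-2.38 to -0.831 h; permutation p = 0.00127). Its amplitude on the log2(TPM + 1) scale fell from 2.48 (SE 0.15) under NRF to 1.72 (SE 0.18) under DRF, or 69.3% of the NRF amplitude (permutation p = 0.00205), and to 63.8% without the 2 libraries (permutation p = 3.00e-05). Dbp shares 539 of its 2993 exon bases with Sphk2 (sphingosine kinase 2, on the opposite strand), and the strand setting of the read counting is not given in the sources used here. Sphk2 moved far less, between 7.91 and 12.3 TPM in the NRF group means, with its lowest mean at ZT12, where Dbp was highest. Under DRF the means of Sphk2 lay between 9.93 TPM at ZT16 and 11.9 TPM at ZT0, and Dbp was highest at ZT8. The part of the shared bases in the values of Dbp was not tested.

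Tef (thyrotroph embryonic factor) stayed at 14.5 TPM or more in every library and peaked early in the dark under NRF. At ZT0, Tef measured 23.5, 20.9, 24.5 and 19.5 TPM under NRF and 40.3, 36.2, 34.9 and 26.6 TPM under DRF. At ZT4, Tef measured 14.5, 22.5, 18.1 and 20.6 TPM under NRF and 54.4, 33.9, 40.7 and 31.0 TPM under DRF. Every DRF library was above every NRF library at both times, by 1.56-fold and 2.12-fold in the means. The log2 differences were 0.61 (SE 0.16, adjusted p = 0.00788) at ZT0 and 1.03 (SE 0.16, adjusted p = 1.97e-04) at ZT4, and the latter was 0.87 (SE 0.15, adjusted p = 2.98e-04) without the 2 libraries. At ZT8, Tef measured 39.8, 54.1, 71.7 and 66.8 TPM under NRF and 63.6, 61.1, 83.3 and 72.3 TPM under DRF. The regimens overlapped at ZT8, with or without the 2 libraries.

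At ZT12, Tef measured 104, 97.0, 116 and 104 TPM under NRF and 78.0, 78.1, 66.8 and 83.1 TPM under DRF. The order was reversed at ZT12, with every DRF library below every NRF library, a 1.38-fold difference in the means and a log2 difference of -0.46 (SE 0.16, adjusted p = 0.0650) that passed without the 2 libraries (adjusted p = 0.0286). At ZT16, Tef measured 78.5, 89.6, 82.2 and 66.7 TPM under NRF and 72.3, 53.5, 54.7 and 49.2 TPM under DRF. Here 1 DRF library, replicate 1, reached into the NRF range, and the log2 difference was -0.47 (SE 0.16, adjusted p = 0.0625), with an adjusted p of 0.0294 without the 2 libraries and of 0.0236 without DRF ZT16 replicate 1. At ZT20, Tef measured 48.2, 43.5, 45.8 and 39.2 TPM under NRF and 43.0, 33.6, 45.5 and 41.1 TPM under DRF. At ZT24, Tef measured 19.4, 24.4, 18.4 and 15.0 TPM under NRF and 23.9, 27.9, 33.5 and 23.1 TPM under DRF. Tef overlapped between regimens at ZT20, and at ZT24 its log2 difference of 0.47 (SE 0.16, adjusted p = 0.0522) passed without the 2 libraries (adjusted p = 0.0219).

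The group means of Tef spanned 5.57-fold under NRF, with 18.9 ± 3.45 TPM as the lowest mean (ZT4) and 105 ± 7.65 TPM as the highest (ZT12), and 2.82-fold under DRF, with 27.1 ± 4.74 TPM (ZT24) and 76.5 ± 6.89 TPM (ZT12; SD, n = 4). The fitted peak of Tef lay at ZT 13.5 (SE 0.230 h) under NRF and at ZT 11.6 (SE 0.410 h) under DRF, a shift of -1.91 h (95% interval -2.83 to -0.984 h; n = 28 libraries per regimen; permutation test within ZT, two-sided, unadjusted p = 5.40e-04). Without the 2 libraries that stand apart the shift was -1.61 h (-2.53 to -0.702 h; permutation p = 0.00134). Its amplitude on the log2(TPM + 1) scale fell from 1.25 (SE 0.07) under NRF to 0.66 (SE 0.06) under DRF, or 53.3% of the NRF amplitude (permutation p = 1e-05), and to 53.7% without the 2 libraries (permutation p = 1e-05). The p of 1e-05 is the smallest that 100000 resamples can give. The highest mean stayed at ZT12 while the fitted peak moved, with DRF above NRF at ZT4 and below it at ZT12. Tef shares 193 of its 7867 exon bases with an antisense gene, whose reads could not be separated.

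Hlf (hepatic leukemia factor), the least abundant PAR bZIP member at its peak, followed Tef closely. At ZT0, Hlf measured 6.49, 7.22, 8.51 and 6.62 TPM under NRF and 9.40, 10.2, 7.84 and 7.48 TPM under DRF. At ZT4, Hlf measured 3.93, 6.40, 5.26 and 6.14 TPM under NRF and 14.5, 10.9, 9.69 and 9.55 TPM under DRF. The regimens overlapped at ZT0, whereas at ZT4 every DRF library was above every NRF library, by 2.05-fold in the means. The log2 difference at ZT4 was 0.92 (SE 0.15, adjusted p = 2.65e-04) and 0.80 (SE 0.13, adjusted p = 1.43e-04) without the 2 libraries. At ZT8, Hlf measured 10.7, 15.8, 23.5 and 20.5 TPM under NRF and 16.2, 16.7, 22.8 and 21.1 TPM under DRF. No separation was seen at ZT8, where the log2 difference was 0.16 (SE 0.15, adjusted p = 0.654) with all libraries and -0.05 (SE 0.13, adjusted p = 0.851) without the 2.

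At ZT12, Hlf measured 30.2, 29.3, 32.4 and 28.7 TPM under NRF and 21.8, 21.8, 17.9 and 22.9 TPM under DRF. All DRF libraries were below all NRF libraries at ZT12, 1.43-fold in the means, with a log2 difference of -0.50 (SE 0.15, adjusted p = 0.0281). At ZT16, Hlf measured 18.4, 22.3, 19.9 and 17.5 TPM under NRF and 17.6, 12.0, 13.6 and 11.8 TPM under DRF. At ZT20, Hlf measured 12.6, 13.4, 12.3 and 11.6 TPM under NRF and 8.84, 7.61, 9.72 and 9.39 TPM under DRF. Hlf under DRF lay below NRF in the means at both times, with differences of -0.49 (SE 0.15, adjusted p = 0.0340) and -0.45 (SE 0.15, adjusted p = 0.0316) on the log2 scale, and at ZT20 the groups did not overlap. At ZT24, Hlf measured 7.05, 8.32, 6.73 and 6.86 TPM under NRF and 5.99, 6.37, 7.17 and 6.65 TPM under DRF. At ZT24 the regimens overlapped. The calls of Hlf at ZT12, ZT16 and ZT20 lay near the threshold, and single libraries ended them. At ZT12 the adjusted p rose to 0.131 without DRF replicate 3 and to 0.0616, 0.0510 and 0.0962 without NRF replicates 1, 2 and 3. At ZT16 it was 0.0930, 0.0687 and 0.175 without DRF replicates 2, 3 and 4, and 0.120 and 0.0836 without NRF replicates 2 and 3. At ZT20 it was 0.0691 and 0.1003 without DRF replicates 1 and 2, and 0.0669, 0.0873 and 0.0560 without NRF replicates 1, 2 and 3 (limma).

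Hlf spanned 5.55-fold in its group means under NRF, with 5.43 ± 1.11 TPM as the lowest mean (ZT4) and 30.2 ± 1.63 TPM as the highest (ZT12), and 3.22-fold under DRF, with 6.55 ± 0.495 TPM (ZT24) and 21.1 ± 2.21 TPM (ZT12; SD, n = 4). The fitted peak of Hlf lay at ZT 13.4 (SE 0.331 h) under NRF and at ZT 10.8 (SE 0.325 h) under DRF, a shift of -2.59 h (95% interval -3.50 to -1.68 h; n = 28 libraries per regimen; permutation test within ZT, two-sided, unadjusted p = 4.00e-05). Without the 2 libraries that stand apart the shift was -2.28 h (-3.19 to -1.37 h; permutation p = 2.10e-04). Its amplitude on the log2(TPM + 1) scale fell from 1.02 (SE 0.08) under NRF to 0.71 (SE 0.05) under DRF, or 69.6% of the NRF amplitude (permutation p = 0.00187), and to 69.2% without the 2 libraries (permutation p = 4.80e-04). The loss of amplitude did not pass when ZT12 was left out (75.4%, permutation p = 0.0886).

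Nfil3, the repressor of D-box genes, peaked late in the dark under NRF, nearly opposite to Dbp, and cycled more shallowly under DRF. At ZT0, Nfil3 measured 43.3, 33.7, 38.7 and 38.5 TPM under NRF and 17.3, 15.6, 17.8 and 13.8 TPM under DRF. Every DRF library was below every NRF library, 2.39-fold in the means, with a log2 difference of -1.21 (SE 0.25, adjusted p = 8.02e-04). At ZT4, Nfil3 measured 20.9, 13.8, 12.5 and 14.7 TPM under NRF and 6.26, 15.2, 18.8 and 22.5 TPM under DRF. At ZT8, Nfil3 measured 22.4, 4.98, 6.74 and 5.31 TPM under NRF and 10.4, 12.1, 11.5 and 10.7 TPM under DRF. At ZT4 the regimens overlapped. At ZT8 they overlapped through the library labelled NRF ZT8 replicate 1; without the 2 libraries DRF was higher, 11.2 ± 0.774 TPM (SD, n = 4) against 5.67 ± 0.935 TPM (SD, n = 3), and the log2 difference was 0.87 (SE 0.14, adjusted p = 3.78e-04) in place of 0.42 (SE 0.25, adjusted p = 0.428).

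At ZT12, Nfil3 measured 6.47, 6.70, 8.46 and 7.19 TPM under NRF and 12.9, 13.3, 17.1 and 18.1 TPM under DRF. All DRF libraries were above all NRF libraries at ZT12, by 2.13-fold in the means, with a log2 difference of 0.99 (SE 0.25, adjusted p = 0.00953). At ZT16, Nfil3 measured 20.6, 20.4, 16.3 and 20.95 TPM under NRF and 23.1, 27.8, 21.9 and 20.6 TPM under DRF. Overlap returned at ZT16, the time of the highest DRF mean. At ZT20, Nfil3 measured 27.5, 30.4, 27.8 and 25.7 TPM under NRF and 17.9, 21.7, 15.97 and 19.95 TPM under DRF. At ZT24, Nfil3 measured 37.3, 36.9, 31.4 and 31.3 TPM under NRF and 23.9, 16.04, 17.2 and 20.3 TPM under DRF. DRF was below NRF in every library at ZT20 and at ZT24, with log2 differences of -0.55 (SE 0.25, adjusted p = 0.123) and -0.80 (SE 0.25, adjusted p = 0.0318); the former passed without the 2 libraries (adjusted p = 0.00316). The ZT24 call was lost without DRF replicate 2 (adjusted p = 0.0839) or 3 (0.0870) and without NRF replicate 1 (0.0642), 2 (0.0784) or 3 (0.0617).

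The group means of Nfil3 spanned 5.35-fold under NRF, from 7.20 ± 0.890 TPM at ZT12 to 38.5 ± 3.91 TPM at ZT0 (SD, n = 4), or 6.80-fold without the 2 libraries, when the lowest mean was at ZT8. Under DRF they spanned 2.09-fold, from 11.2 ± 0.774 TPM at ZT8 to 23.3 ± 3.15 TPM at ZT16. The fitted peak of Nfil3 lay at ZT 22.0 (SE 0.369 h) under NRF and at ZT 18.8 (SE 0.822 h) under DRF, a shift of -3.22 h (95% interval -4.99 to -1.46 h; n = 28 libraries per regimen; permutation test within ZT, two-sided, unadjusted p = 1.50e-04). Without the 2 libraries that stand apart the shift was -2.57 h (-4.25 to -0.885 h; permutation p = 4.40e-04). Its amplitude on the log2(TPM + 1) scale fell from 1.14 (SE 0.10) under NRF to 0.40 (SE 0.10) under DRF, or 35.1% of the NRF amplitude (permutation p = 6.00e-05), and to 26.4% without the 2 libraries (permutation p = 1e-05). Of the 8 fitted peaks of the members, the DRF peak of Nfil3 had the widest error.

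**Figure D2:**
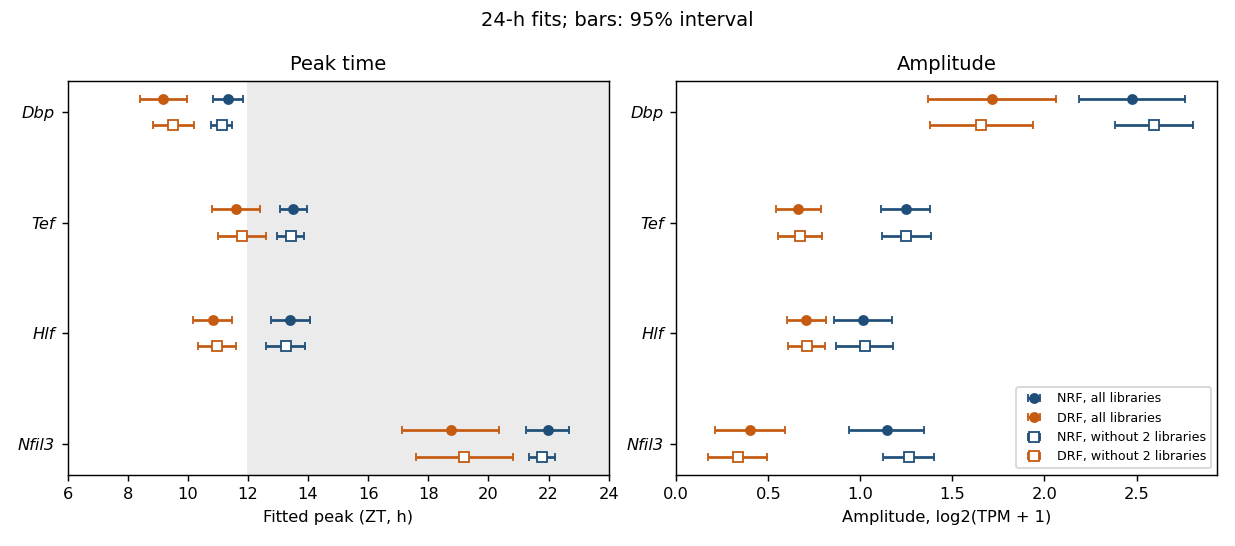
Fitted peak time (left, ZT in h, dark phase shaded) and amplitude (right, log2(TPM + 1)) of each member under NRF (blue) and DRF (orange), with 95% intervals; filled circles use all libraries and open squares leave out the 2 that stand apart. Each DRF peak lies earlier than its NRF peak, with shifts from -3.22 h (Nfil3) to -1.91 h (Tef), and each DRF amplitude is smaller.

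By time of day, at least 1 member passed at every ZT but ZT8. Of the 28 comparisons of a member at a ZT, 10 passed an adjusted p under 0.05 with all libraries and 18 without the 2 (limma contrasts adjusted over all genes tested). At ZT0, 3 of 4 members passed and 3 did not overlap, where 11.5% of all genes passed and 15.4% did not overlap. At ZT4, 2 members passed and 3 did not overlap, against 0.446% and 2.89% of genes. At ZT8, 0 members passed and 0 were separate, against 0.353% and 7.53% of genes; 2030 genes had an unadjusted p under 0.05 there, none of the members among them. ZT12 saw 2 members pass and 4 separate, against 7.64% and 13.5%. Hlf alone passed at ZT16 (6.87% of genes) although none was separate (19.5%), and it alone passed at ZT20 (14.8%), where 2 were separate (19.7%). At ZT24 only Nfil3 passed (8.83%), and only Nfil3 was separate (13.5%).

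Without the 2 libraries 3 members passed at ZT0, where 12.5% of genes did, and 3 at ZT4, where 3.45% did. Only Nfil3 passed at ZT8 (3.60% of genes), whereas at ZT12 all 4 members passed (9.39%). Dbp, Tef and Hlf, 3 members, passed at ZT16 (8.01%), Hlf and Nfil3 at ZT20 (16.7%) and Tef and Nfil3 at ZT24 (10.5%). The 2 libraries left out are labelled ZT4 and ZT8, so at the other times the differences did not change. Calls gained there came with smaller SEs, which pool the spread of all groups. The PAR bZIP factors were higher under DRF at ZT0 and ZT4 and lower at ZT12 and ZT16 in the group means, and Nfil3 went the other way at ZT0 and ZT12. At ZT24, the same clock time as ZT0, the PAR bZIP factors did not all go the same way. With all libraries the log2 differences there were 0.60 for Dbp, 0.47 for Tef and -0.13 for Hlf (limma adjusted p = 0.396, 0.0522 and 0.643). Leaving out the library labelled NRF ZT8 replicate 1 alone gave 17 calls, among them Dbp at ZT4 (adjusted p = 0.00964) and ZT12 (0.0155), Tef at ZT12 (0.0435) and Nfil3 at ZT8 (0.0141; limma). That is 17 of 28 member comparisons, where 8.25% of all gene-by-ZT comparisons passed, against 10 of 28 and 7.21% with all libraries. Without replicate 1 of every group there were 16 (5.20% of all comparisons), without replicate 2 there were 3 (3.17%), without replicate 3 there were 4 (2.08%) and without replicate 4 there were 7 (8.03%). The median-of-ratios scaling moved the regimens by 0.11 on the log2 scale relative to each other at ZT16 and by less than 0.1 at the other times, and with it the difference of Hlf at ZT16 was -0.39 (adjusted p = 0.0701).

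**Figure D3:**
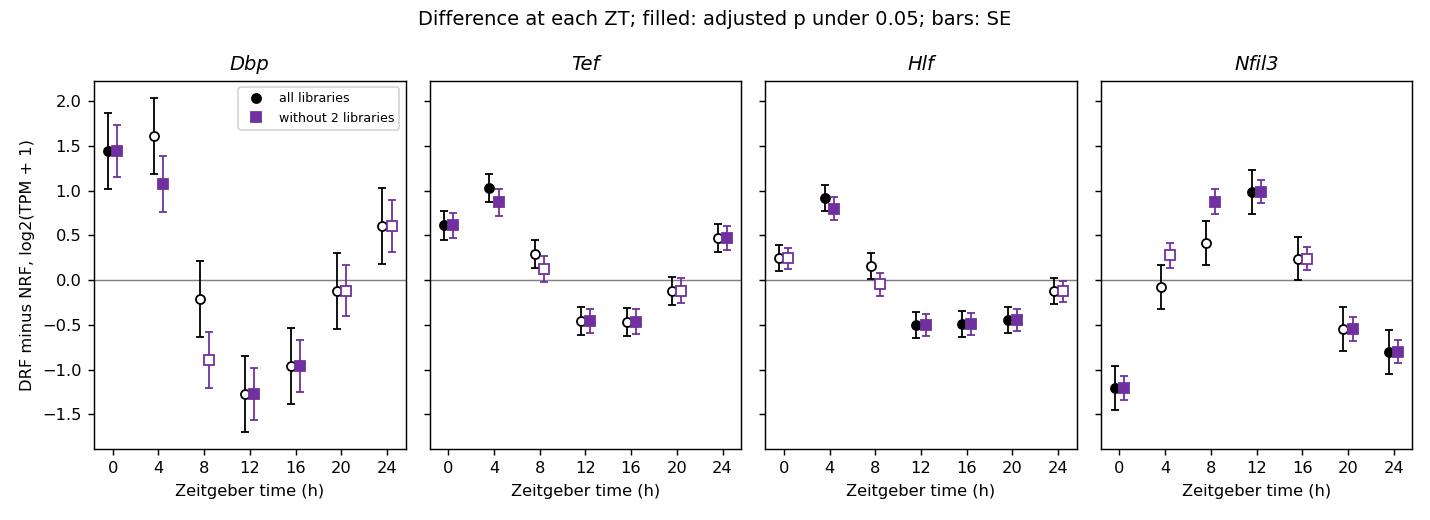
Difference DRF minus NRF in log2(TPM + 1) at each ZT for each member, with SE bars; circles use all libraries, squares leave out the 2 that stand apart, and filled symbols have a limma adjusted p under 0.05. The PAR bZIP members are above 0 at ZT0 and ZT4 and below 0 at ZT12 and ZT16, and Nfil3 is below 0 at ZT0, ZT20 and ZT24 and above 0 at ZT12. At ZT24 Dbp and Tef are above 0 and Hlf is below 0.

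The level over the whole day did not pass for any member. The mean difference DRF minus NRF in log2(TPM + 1) was -0.01 (SE 0.16, adjusted p = 0.974) for Dbp, 0.12 (SE 0.0606, adjusted p = 0.122) for Tef, -0.07 (SE 0.0624, adjusted p = 0.395) for Hlf and -0.01 (SE 0.0938, adjusted p = 0.944) for Nfil3 (limma). So 0 of 4 passed, against 26.0% of all genes. Tef had an unadjusted p of 0.0459, and its difference passed with median-of-ratios scaling (0.18, adjusted p = 0.0164) and with voom on the recovered reads (0.16, adjusted p = 0.0429). With the 2 libraries left out the differences were -0.19 (SE 0.12, adjusted p = 0.222) for Dbp, 0.08 (SE 0.0538, adjusted p = 0.291) for Tef, -0.13 (SE 0.0548, adjusted p = 0.0753, unadjusted 0.0260) for Hlf and 0.11 (SE 0.0567, adjusted p = 0.146) for Nfil3, with 0 of 4 called against 29.6% of genes (limma). The sign for Nfil3 thus changed, and those for Dbp and Hlf moved further below 0. Without replicate 1 of every group, which holds both of these libraries, the difference of Hlf was -0.16 and passed (adjusted p = 0.0366, limma). On the linear TPM scale the mean of the 7 group means of Dbp was 47.0 under NRF and 34.0 under DRF, and 51.3 and 30.7 without the 2 libraries. That of Tef was 49.6 and 49.5, and 50.5 and 48.8 without them. That of Hlf was 14.2 and 12.8, and 14.6 and 12.6 without them. That of Nfil3 was 21.8 and 17.1, and 21.2 and 17.6 without them. These means count dawn at both ZT0 and ZT24, where Nfil3 was highest under NRF, and they were not tested.

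ZT0 and ZT24 are the same clock time a day apart, and none of the members differed between them past the threshold. Under NRF the ZT24 minus ZT0 differences in log2(TPM + 1) lay between -0.20 (Tef) and 0.01 (Hlf), with 0 of 4 called against 0.0576% of genes (limma). Under DRF they were -0.89 for Dbp, -0.34 for Tef, -0.36 for Hlf and 0.24 for Nfil3, with 0 of 4 called against 0.425% of genes. The unadjusted limma p-values of the DRF differences of Dbp, Tef and Hlf were 0.0405, 0.0389 and 0.0175, all lower at ZT24, and 1694 genes had an unadjusted p under 0.05 in that comparison.

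The order of the members by TPM, which compares genes per length, turned over within the day. Under NRF, Nfil3 led at ZT0 and was followed by Tef, Hlf and Dbp, and at ZT12 Dbp led and was followed by Tef, Hlf and Nfil3; at both times no neighbours in the order overlapped over the 4 libraries. Under DRF, Tef led at ZT0 and Nfil3, Dbp and Hlf followed, with Nfil3 overlapping Dbp and Dbp overlapping Hlf. At ZT12 under DRF the order was Tef, Dbp, Hlf and Nfil3, and Hlf and Nfil3 overlapped. Thus Nfil3 was the highest of the 4 at ZT0 and ZT24 under NRF and at no ZT under DRF. Dbp made up 12.1% ± 1.85 of the summed PAR bZIP TPM at ZT0 and 51.9% ± 4.48 at ZT12 under NRF, and 23.2% ± 6.27 and 38.0% ± 0.895 under DRF (SD, n = 4).

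The spacing of the members within the day was compared over the 6 pairs. Dbp peaked before Tef by 2.19 h (SE 0.202) under NRF and 2.42 h (SE 0.375) under DRF, and before Hlf by 2.09 h (SE 0.262) and 1.63 h (SE 0.294). From the Dbp peak to the Nfil3 peak was 10.6 h (SE 0.260) under NRF and 9.56 h (SE 0.720) under DRF. Nfil3 followed Tef by 8.46 h (SE 0.382) under NRF and 7.14 h (SE 0.851) under DRF, and Hlf by 8.56 h (SE 0.420) and 7.93 h (SE 0.801), so that Dbp was the activator nearest to the opposite time of day. Tef and Hlf peaked together under NRF, 0.102 h apart (SE 0.174), and under DRF Hlf led Tef by 0.786 h (SE 0.221). That change of -0.684 h had an unadjusted permutation p of 0.00977 (0.0139 without the 2 libraries), was -0.25 h (p = 0.458) without ZT4, and is the only change of the 6 with a p under 0.05. Without replicate 2 or 4 of every group its permutation p was 0.0876 or 0.0743. The others had permutation p-values from 0.144 to 0.602, and from 0.156 to 0.983 without the 2 libraries. Across the 28 libraries of a regimen, as a description, Tef and Hlf correlated with Pearson's r of 0.981 under NRF and 0.961 under DRF, and Dbp with Tef at 0.864 and 0.804 and with Hlf at 0.863 and 0.887. Nfil3 correlated with Dbp at -0.916 and -0.660, with Tef at -0.633 and -0.367 and with Hlf at -0.649 and -0.435; the points share the sampling times.

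Activators and repressor bind the same elements, and their ratio was followed in each library as log2 of the summed TPM of Dbp, Tef and Hlf over that of Nfil3. The ratio was -0.21 ± 0.16 at ZT0 and 5.30 ± 0.21 at ZT12 under NRF (SD, n = 4), which is 0.865 and 39.3 on the linear scale. Under DRF it was 1.80 ± 0.20 at ZT0 and 3.37 ± 0.29 at ZT12, or 3.48 and 10.3. The differences at ZT0 (2.01), ZT12 (-1.93) and ZT24 (1.24) each had an exact permutation p of 0.0286, the smallest that 4 against 4 allows (70 arrangements, two-sided). The other times had exact permutation p-values of 0.114 at ZT4, 0.657 at ZT8, 0.0571 at ZT16 and 0.114 at ZT20; without the 2 libraries the difference at ZT8 went from -0.52 to -1.44 (exact permutation p = 0.0286) and that at ZT4 from 1.45 to 0.71 (exact permutation p = 0.200). The ratio was below 0 in every NRF library at ZT0 and above 0 in every DRF library at that time. The place of 0 depends on how the activators are combined. With the mean of their log2 levels in place of their sum, ZT0 libraries ran from -2.38 to -1.94 under NRF and from -0.31 to 0.29 under DRF.

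The daily mean of this log2 ratio was 2.46 (SE 0.15) under NRF and 2.48 (SE 0.13) under DRF (n = 28 libraries each; permutation p = 0.962). The difference of 0.01 became -0.19 without the 2 libraries, with means of 2.58 and 2.40 (permutation p = 0.423), and -0.31 without replicate 1 of every group (permutation p = 0.228). Its amplitude was 2.67 (SE 0.20) and 1.27 (SE 0.18), so DRF kept 47.7% of the NRF amplitude (permutation p = 2.00e-05), and 42.7% without the 2 libraries (permutation p = 1e-05, again the smallest possible). The ratio peaked at ZT 11.3 under NRF and ZT 9.19 under DRF, a shift of -2.16 h (SE 0.641; permutation p = 1.00e-03) that was -1.38 h without the 2 libraries (permutation p = 0.00784).

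**Figure D4:**
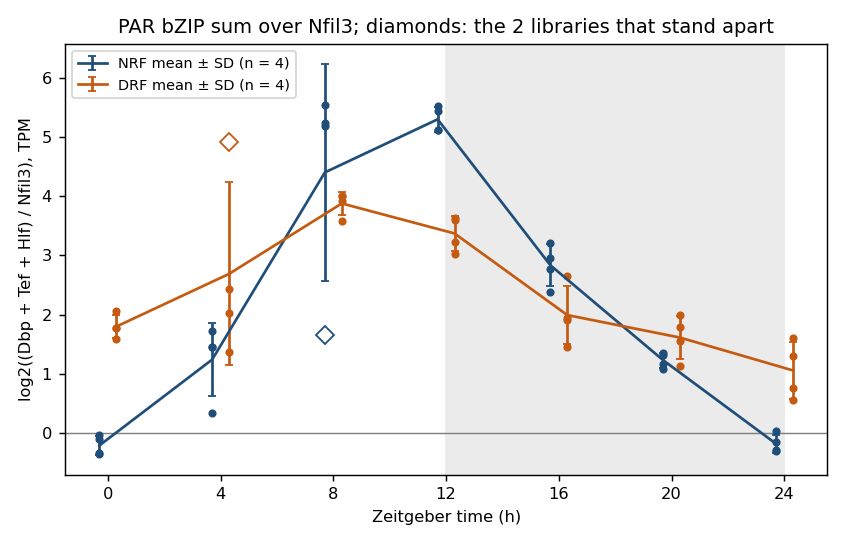
Log2 ratio of the summed TPM of Dbp, Tef and Hlf to that of Nfil3 against zeitgeber time, with points for libraries and lines and bars for the mean and SD (n = 4) under NRF (blue) and DRF (orange). The NRF means run from -0.21 at ZT0 to 5.30 at ZT12, and the DRF means stay between 1.06 and 3.88.

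As a description without a test, the 6-point course of group means under DRF was set beside the NRF course read at the same ZT and at later ZTs. With all libraries, Pearson's r for Dbp was 0.828 at the same ZT and 0.889 with NRF read 4 h later, and for Tef 0.878 and 0.831. For Hlf r was 0.770 and 0.886, and for Nfil3 0.642 and 0.835. Without the 2 libraries the same ZT gave the highest r for all 4 members, 0.915 for Dbp, 0.930 for Tef, 0.844 for Hlf and 0.718 for Nfil3. A reading 12 h later, a full inversion, gave r from -0.837 to -0.572 with all libraries.

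The genes whose 14 group means were most like those of a member, by Pearson's r over log2(TPM + 1), are a description of pattern only. For Tef they were Per3 (0.996), a period gene of the clock, Hlf (0.969) and Bmp4 (0.942). For Hlf they were Per3 (0.979), Tef (0.969) and Coq10b (0.9495). Dbp was most like Lrrn4cl (0.949), Tspan4 (0.942) and Ccl11 (0.935), and over the 56 single libraries most like Tspan4, Nr1d2 and Bhlhe41. Nfil3 was most like Hist2h3c2 (0.936), Mgme1 (0.889) and Ypel2 (0.885). Of the first 3 genes, the group means and the single libraries shared 1 for Dbp, 2 for Tef, 2 for Hlf and 1 for Nfil3.

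The other clock genes were set beside the members. All 15 in the list were tested. Rhythms passed for 15 of them under NRF and for 13 under DRF, and 14 differed in rhythm between regimens (limma adjusted p under 0.05; the background shares stand above). Of the 13 rhythmic under both, 12 peaked earlier under DRF and 12 had the lower amplitude, with a median absolute shift of 1.86 h. Over all 2434 genes rhythmic under both, 65.5% peaked earlier, 56.8% had the lower amplitude and the median absolute shift was 3.81 h. Arntl, which encodes BMAL1, the activator at E-boxes, peaked at ZT 0.857 under NRF and ZT 23.2 under DRF and its log2 amplitude went from 1.71 to 1.01 (adjusted p for rhythm difference 3.19e-07). Nr1d2, which encodes the repressor REV-ERB beta, peaked at ZT 11.6 under NRF and ZT 10.3 under DRF, with amplitudes of 1.39 and 0.61 (adjusted p = 1.80e-07). Per3 peaked at ZT 13.3 under NRF and ZT 11.3 under DRF, with amplitudes of 1.48 and 0.86 (adjusted p = 1.30e-07). Cry2, a repressor of CLOCK and BMAL1, had amplitudes of 0.60 and 0.11 (adjusted p = 4.16e-08), and its DRF rhythm did not pass (adjusted p = 0.0550). It passed without the 2 libraries (adjusted p = 0.0436), so that 14 of 15 were rhythmic under DRF, 12 of these peaked earlier and 13 had the lower amplitude, and the median absolute shift was 1.30 h.

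**Figure D5:**
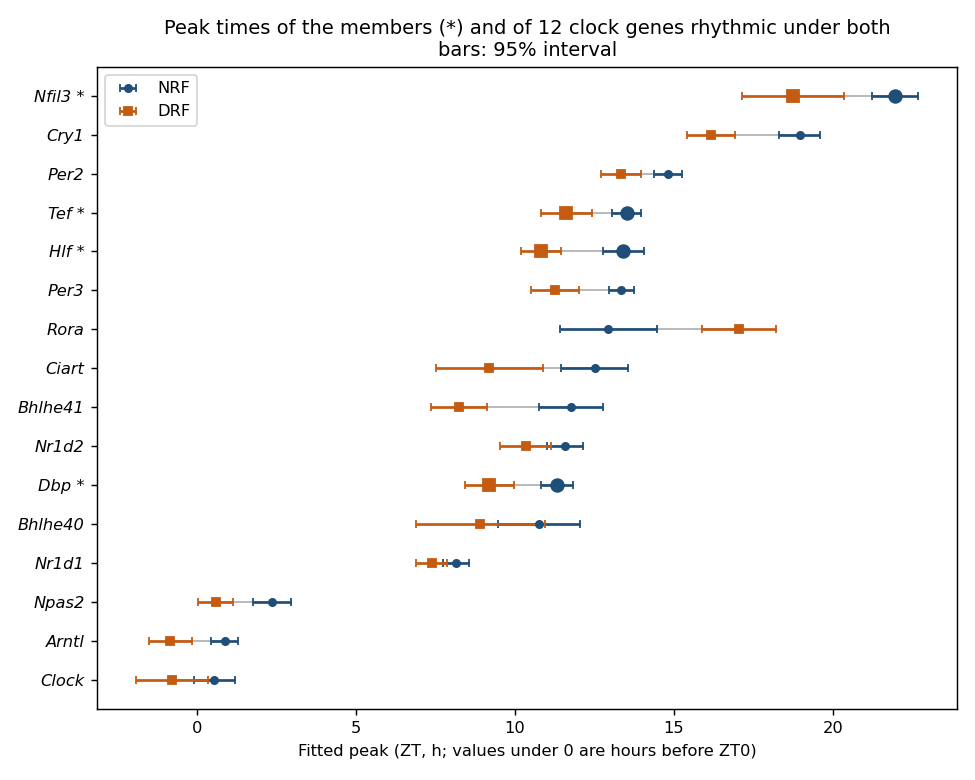
Fitted peak times (x axis, ZT in h, with values under 0 as hours before ZT0) under NRF (blue circles) and DRF (orange squares) of the members (asterisks, larger symbols) and of 12 of the 13 clock genes rhythmic under both regimens, with 95% intervals. DRF peaks lie to the left of NRF peaks for all genes shown except Rora.

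Genes described elsewhere as bound or driven by PAR bZIP factors or Nfil3 were read from the same fits. Of the 15 in the list 14 were listed and 10 were tested. Rhythms passed for 8 under NRF, against 37.2% of all genes, and for 4 under DRF, close to the 32.2% of all genes. In the same fits 9 differed in rhythm, against 27.5% (limma adjusted p under 0.05). Of the 4 rhythmic under both, Pdxk, Acot1 and Acot2 peaked earlier under DRF, and for Alas1 earlier and later cannot be told apart, with a shift of -11.5 h (SE 1.25 h). The median absolute shift was 6.58 h, and 1 of the 4, Pdxk, had the lower amplitude under DRF. Usp2, a ubiquitin-specific protease, had an amplitude of 0.78 and a peak at ZT 13.1 under NRF, close to that of Tef, and an amplitude of 0.13 under DRF, where its rhythm did not pass (adjusted p = 0.219; rhythm difference 4.88e-09). Acot1, a cytosolic acyl-CoA thioesterase, peaked at ZT 5.67 under NRF and ZT 23.2 under DRF and its amplitude went from 0.61 to 0.99 (adjusted p = 3.39e-08), and Acot2, its mitochondrial relative, peaked at ZT 7.06 under NRF and ZT 0.338 under DRF, with amplitudes of 0.47 and 0.56 (adjusted p = 1.01e-07). Alas1, the first enzyme of heme synthesis, peaked at ZT 0.0813 under NRF and ZT 12.6 under DRF, nearly opposite times, with amplitudes of 0.20 and 0.25 (adjusted p = 1.38e-06). Acot1 and Acot2 are close paralogs, so their reads may be split between them. In mean level Acot1 was higher under DRF (0.58 on the log2 scale, adjusted p = 1.21e-04) and Pdxk lower (-0.14, adjusted p = 0.00491), 2 of 10 against 26.0% of all genes. The counts of this list were the same without the 2 libraries in each of these tests. In the 250 bases before the start sites, the D-box TTANGTAA stands in 0 of the 12 list genes with a RefSeq promoter, against 2.06% of all promoters.

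The C/EBP family, leucine zipper factors that bind sites related to the D-box, came next. Of 5 genes 4 were tested. Rhythms passed for 4 under NRF (37.2% of all genes) and for 2 under DRF (32.2%), and 1, Cebpb, differed in rhythm (limma adjusted p = 0.00392), which in a list of 4 is close to the 27.5% of all genes. Cebpb peaked at ZT 12.6 under NRF and ZT 16.6 under DRF, a shift of 3.96 h (SE 1.33 h), with amplitudes of 0.88 and 0.42. Cebpg, the other C/EBP gene rhythmic under both regimens, had a shift of -1.34 h (SE 1.18 h). The rhythm differences of Cebpd, Cebpg and Cebpa had adjusted p-values of 0.330, 0.401 and 0.572. The counts were the same without the 2 libraries.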

How the data were processed

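Heart RNA (Trizol, poly(A) selection, paired 150-base reads) was measured in 56 libraries. The submitters' processing notes name HISAT2 2.0.5, featureCounts 1.5.0-p3 and mm10; the annotation and strand setting are not given in the sources used here. The deposited values are headed TPM but follow a log-compressed score: each is proportional to the logarithm of 1 plus scaled reads, divided by exon length. From these values, as deposited by the authors, whole reads were recovered with exon lengths of GENCODE M21 (GRCm38). Of 22864 genes, 22852 had an annotated length, with which the reads of 21958 came out whole within 0.1; 836 needed a searched length, chosen so that reads were whole, 67 were too abundant for this check and kept the annotated length, and 3 were left out. Linear TPM was then recomputed.

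The 13893 genes whose mean reached 1 TPM were tested on log2(TPM + 1), which understates changes of low genes, with limma 3.58.1 in R 4.3.3 (trend, Benjamini-Hochberg over all of them). The fit was tested on simulated data. Peak time and amplitude came from 24-h cosine fits with delta-method errors, and were compared by permuting regimens within ZT (100000 resamples, two-sided). These tests were unadjusted: 4 shifts, 4 amplitudes, 6 gaps, and the mean, amplitude and shift of the ratio. The exact tests of the ratio at each ZT were also unadjusted. Permuted regimens stand for no difference of any kind, so the p of a shift does not test peak time apart from amplitude. Counts of reads stand for recovered reads, so count models were not the main test. The study used other rhythm tools (MetaCycle and CircaCompare). All 4 members are named; of each gene list, at most the 4 genes with the smallest adjusted p for a difference in rhythm were named, besides Sphk2 and the 3 genes most like each member. Nr1d2 and Bhlhe41, as genes most like Dbp over single libraries, and Pdxk were named after their values were seen. The values of 1 gene of the clock list are not reported here. The members and lists were chosen with earlier results of these data known. Alternatives changed scaling, filter, pseudocount, scale, time points, libraries and the replicate block.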

Additional observations from a re-analysis of the deposited data

Results flagged for a closer look

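Over 4 members in the same 14 groups of 4 libraries, 5 of 56 sets of values held a single library far from the others (Dixon's ratio above 0.829), where chance flags about 1 in 20; sets that share libraries are not independent. Dbp was 67.5 TPM in DRF ZT8 replicate 2, with 76.9 to 78.5 TPM in the other 3 libraries. Dbp was 55.8 TPM in DRF ZT16 replicate 1, with 10.6 to 16.4 TPM in the others, and 12.0 TPM in DRF ZT24 replicate 3, with 4.67 to 5.48 TPM in the others. Nfil3 was 22.4 TPM in the library labelled NRF ZT8 replicate 1, with 4.98 to 6.74 TPM in the others, and 16.3 TPM in NRF ZT16 replicate 3, with 20.4 to 20.95 TPM in the others.

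The daily rhythm differed between DRF and NRF for each member, with adjusted p-values (limma interaction F test) of 2.11e-05 for Dbp, 2.94e-07 for Tef, 1.83e-05 for Hlf and 1.17e-06 for Nfil3. The gap from the Tef peak to the Hlf peak changed by -0.68 h between regimens (permutation p = 0.00977, unadjusted over 6 gaps), the smallest p among them.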

How the results depend on the processing

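Over 91 results and 81 alternatives, 6482 values were recomputed; 6234 stayed on their side of the threshold or within the spread allowed, 51 lost and 72 gained a call, 125 counts or values moved, and 0 called values reversed. Among the 6234, 87 values of 11 results that passed under neither setting changed sign, such as Hlf at ZT8 (0.16, and -0.05 without the 2 libraries). The removal of the 2 libraries nearer to another group was added after seeing the data. With it, 18 of 28 member comparisons at single ZTs were called in place of 10 (9.16% of all gene-by-ZT comparisons in place of 7.21%), and the best lag of Dbp, Hlf and Nfil3 was 0 h in place of 4 h. It moved the genes called at ZT4 from 62 to 480 and at ZT8 from 49 to 500. Without ZT4, the change in the gap from Dbp to Nfil3 was -1.93 h (permutation p = 0.0192) and that from Tef to Hlf -0.25 h (p = 0.458). Without ZT12, Hlf kept 75.4% of its NRF amplitude (permutation p = 0.0886). The adjusted p of the Nfil3 rhythm under DRF was 0.0969 without ZT8 and 0.0513 without ZT16 (limma). Tef differed in mean level by 0.18 with median-of-ratios scaling and by 0.16 with voom (limma adjusted p = 0.0164 and 0.0429).

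Leaving out libraries singly or by replicate number gave 3 to 17 member calls, a Nfil3 rhythm under DRF with an adjusted p from 7.63e-04 to 0.0585 (limma), a change of the gap from Tef to Hlf from -0.92 to -0.50 h, a mean difference of Hlf from -0.16 to -0.03, and best lags of 0 to 4 h for Dbp, Nfil3 and Tef. Over the same 60 removals, comparisons just outside the threshold passed in 10 for Dbp at ZT12, 3 for Dbp at ZT4, 12 for Tef at ZT24, 4 for Tef at ZT16 and 2 for Tef at ZT12. Calls were lost in 5 for Dbp at ZT0, 6 for Hlf at ZT12, 8 for Hlf at ZT16 and 7 for Hlf at ZT20. Losses also came in 8 for Nfil3 at ZT24, 2 for Nfil3 at ZT12 and 1 for Tef at ZT0. The cause of these changes was not tested.

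Counts over all genes also moved under other settings. For the mean level the count went from 3607 to 1810 with median-of-ratios scaling, 1602 without mitochondrial genes in the scaling, 1900 on the deposited values, 1413 without ZT8 and 1791 without ZT16. Without ZT12, 3313 genes were rhythmic under NRF and 2387 differed in rhythm, in place of 5166 and 3825, and without ZT16, 2577 were rhythmic under DRF in place of 4478. At ZT16 the count was 600 with median-of-ratios scaling and 429 on the deposited values in place of 955; at ZT24 it was 2163 with median-of-ratios scaling and 1963 with voom in place of 1227. At ZT4 it was 232 (median-of-ratios), 149 (deposited values) and 153 (voom), and at ZT8 it was 108, 31 (without mitochondrial genes and with no filter), 248 (voom), 122 (without ZT4) and 23 (without ZT16). For ZT24 minus ZT0 under DRF it was 210, 98 (without mitochondrial genes), 112 (deposited values) and 116 (voom) in place of 59.

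The replicate numbers did not pair the libraries: same-numbered libraries of both regimens at a ZT had deviations correlated from -0.179 to 0.115, with a median of -0.033, and 1 of 28 was over 0.1. The replicate block moved Tef at ZT24 past the threshold (0.47, limma adjusted p = 0.0459) and changed no other call of a member. The members had 148 reads or more in each library, and 4 libraries per group and a 4-h spacing limit the precision of peak times.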

Other observations

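Over the 14 group means, the gene whose pattern was most opposite to that of Tef and of Hlf was Arntl, which encodes BMAL1, with Pearson's r of -0.967 and -0.968. For Dbp it was Igf2bp2, an RNA-binding protein gene (-0.942), and over the 56 single libraries it was Arntl. For Nfil3 it was Pdcd4, a translation inhibitor gene (-0.937), also over the single libraries (-0.858). These genes were picked after their values were seen, the points share the sampling times, and no test was made.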
